A study of Mus musculus with 24 samples.

Results

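Myogenic regulators and embryonic muscle genes were followed as a group of 10 genes among the 18368 genes of the expression table. The group was fixed by name and comprised Myf5, Myod1, Myog and Myf6, which encode the myogenic regulatory factors, and Pax7, the transcription factor of muscle satellite cells. It also held Myh3 and Myh8, the embryonic and perinatal myosin heavy chains, Chrng and Chrna1, the fetal gamma and the alpha subunit of the muscle acetylcholine receptor, and Mymk (listed under its current symbol, formerly Tmem8c), the membrane protein myomaker that drives myoblast fusion. All 10 were found in the table and none was left out.

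The libraries came from full-thickness skin of CD1 mice, an outbred stock, at abdomen, back and cheek. The animals were 7 weeks old at wounding and were coordinated in telogen, the resting phase of the hair cycle, and no genotype, sex or drug treatment distinguished the groups in the labels. Each mouse received full-thickness 2 mm excisional wounds at a single site, 1 wound on the cheek or 2 on the abdomen or back. The paper states a depth, the deep fascia, where it describes the cheek wounds. The labels number the mice 1 to 4 at every site, so the count of 12 different mice is taken from this protocol and not from the labels. On day 3 a 2 mm punch was taken from the wound and from adjacent unwounded skin of the same mouse, which gave 4 wound and 4 unwounded libraries per site, 24 in all. The unwounded libraries are therefore from shaved, anaesthetised mice that carried a wound nearby, and all groups share this.

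In adult muscle, satellite cells lie quiet on the fibres and express Pax7 and Myf5. After injury they divide as myoblasts that express Myod1, then leave the cell cycle as Myog rises, fuse through myomaker and its partner myomixer, and build new fibres. Young fibres use Myh3, then Myh8, before the adult myosins replace them, and they spread receptors that contain the gamma subunit over the whole membrane until a nerve contact is made. Myf6, also called MRF4, is the regulatory factor that stays on in mature fibres. In mouse skin a thin sheet of striated muscle, the panniculus carnosus, lies under the dermis of the trunk, and facial muscles lie under that of the cheek.

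The regulatory factors bind the E-box, CANNTG, and Myod1 and Myog prefer the form CAGCTG in many muscle promoters. The 250 bases before the annotated start are shown for 4 members that were higher in the wounds of all 12 mice, so that a reader can see where the E-boxes lie, from the RefSeq promoter table of GRCm38.p6, with every CANNTG in capitals. Chrng (chr1:87205561-87205810, plus strand) and Chrna1 (chr2:73580339-73580588, minus strand, printed as transcribed) each held 2 CAGCTG matches. Myog (chr1:134289754-134290003, plus strand) and Myh3 (chr11:67078050-67078299, plus strand) held CANNTG matches of other forms.
Chrng: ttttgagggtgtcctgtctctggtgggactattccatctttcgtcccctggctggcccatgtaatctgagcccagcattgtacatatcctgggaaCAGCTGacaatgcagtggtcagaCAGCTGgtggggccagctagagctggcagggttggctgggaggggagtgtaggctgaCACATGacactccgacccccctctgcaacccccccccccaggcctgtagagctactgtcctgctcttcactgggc
Chrna1: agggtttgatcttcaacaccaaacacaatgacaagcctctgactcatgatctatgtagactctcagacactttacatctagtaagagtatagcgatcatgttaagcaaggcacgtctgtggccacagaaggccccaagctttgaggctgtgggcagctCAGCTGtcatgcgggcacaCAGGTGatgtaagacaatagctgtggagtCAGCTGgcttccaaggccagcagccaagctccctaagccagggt
Myog: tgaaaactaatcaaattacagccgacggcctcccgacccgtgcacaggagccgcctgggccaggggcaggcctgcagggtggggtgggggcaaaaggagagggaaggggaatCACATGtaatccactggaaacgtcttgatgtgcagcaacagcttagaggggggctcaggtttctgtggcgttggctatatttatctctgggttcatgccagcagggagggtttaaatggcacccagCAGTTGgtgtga
Myh3: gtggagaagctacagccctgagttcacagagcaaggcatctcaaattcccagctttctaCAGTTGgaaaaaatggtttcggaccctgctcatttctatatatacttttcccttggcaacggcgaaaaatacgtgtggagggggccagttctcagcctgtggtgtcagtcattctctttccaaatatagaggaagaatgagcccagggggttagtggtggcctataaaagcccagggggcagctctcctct

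The CAGCTG matches began at -155 and -132 in Chrng and at -92 and -44 in Chrna1, counted from the start. Both motifs are their own reverse complement, so a match holds for both strands, and CAGCTG is a special case of CANNTG. For Myh3, Myf5 and Pax7 the start used by that table lies within the annotated gene, and the windows of Myf5 and Pax7 lie wholly inside it. The promoter table held 7 of the 10 members, without Myod1, Myf6 and Mymk. At least 1 CAGCTG lay in 2 of these 7, against 13% of 32851 promoters of the same length, and at least 2 lay in the same 2 genes, against 1.26%. CANNTG lay in 5 of the 7 (Myog, Myh3, Myh8, Chrng and Chrna1), against 66.2% of all. The members without a match were Myf5 and Pax7, so for them the window does not show sequence before the annotated gene. A match describes the letters in this window and nothing about binding.

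On GRCm38.p6, Myf5 (chr10:107482908-107486927) and Myf6 (chr10:107492848-107494723) lie 5920 bases apart. Myh3 (chr11:67078273-67102291) and Myh8 (chr11:67277124-67308634) belong to a cluster of similar myosin genes and lie 174832 bases apart, so fragments shared between near-identical exons were divided by the quantification and their levels carry that uncertainty. Myog (chr1:134290004-134292548) and Chrng (chr1:87205811-87211835) are on one chromosome, as are Chrna1 (chr2:73563281-73580338) and Mymk (chr2:27061636-27072161). Myod1 (chr7:46376474-46379092) and Pax7 (chr4:139737059-139833530) are the remaining members.

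The level of striated muscle RNA differed between libraries, and the members are read beside it. The muscle fibre level, defined as the mean of log2(FPKM + 0.5) over 26 genes of mature fibres such as Acta1, Ckm and Ttn, none of them a member, was 3.57 in the unwounded abdomen library of mouse 2 and 5.55 in that of mouse 3, against 7.82 to 8.87 in the other 10 unwounded libraries. It was 5.01 to 7.05 in the 12 wounds. FPKM counts sequenced fragments corrected for transcript length and for the total mapped in that library. All 26 genes were above 0 in every library, and their FPKM summed to 802.8 and 4221.5 in those 2 abdomen libraries, 18319.4 to 36967.3 in the other unwounded libraries and 2538.9 to 10483.8 in the wounds. The fibre level was lower in the wound of 10 of 12 mice, by a mean of 1.39 (SD 1.38; two-sided exact sign permutation over 12 mice, p = 0.00928), and higher in the wounds of abdomen mice 2 and 3. Less muscle in a punch and less RNA per fibre cannot be told apart in such bulk samples. All FPKM of a library summed to between 490830 and 608888, and absolute depth is unknown.

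Day 3 wounds held more RNA of 7 members than the unwounded skin of the same mouse in 12 of 12 mice: Myod1, Myog, Myh3, Myh8, Mymk, Chrng and Chrna1. The share of all genes higher in 12 of 12 mice was not counted, and genes outside the group, such as Snai1 and Runx1, were so as well. Mean wound effects over the 3 sites on the scale of log2(FPKM + 0.5), which understates changes of low genes, were 4.62 for Mymk (24.7-fold), 4.38 for Myh3 (20.9-fold) and 3.15 for Chrng (8.85-fold). They were 2.80 for Myog (6.97-fold), 1.96 for Myh8 (3.90-fold), 1.65 for Chrna1 (3.14-fold) and 1.45 for Myod1 (2.73-fold). The 7 passed the threshold of an adjusted p of 0.001 in a limma fit over all genes with a term for each mouse, where 19.1% of 14423 tested genes were called higher and 14.4% lower. Myh3 is a description among them, with 6 members left as tested calls: it passed the filter on low values only through the wounds, where it was high, so it had to differ. Pax7, Myf5 and Myf6 were not called. The plot of values by library shows all 10 genes.

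**Figure D1:**
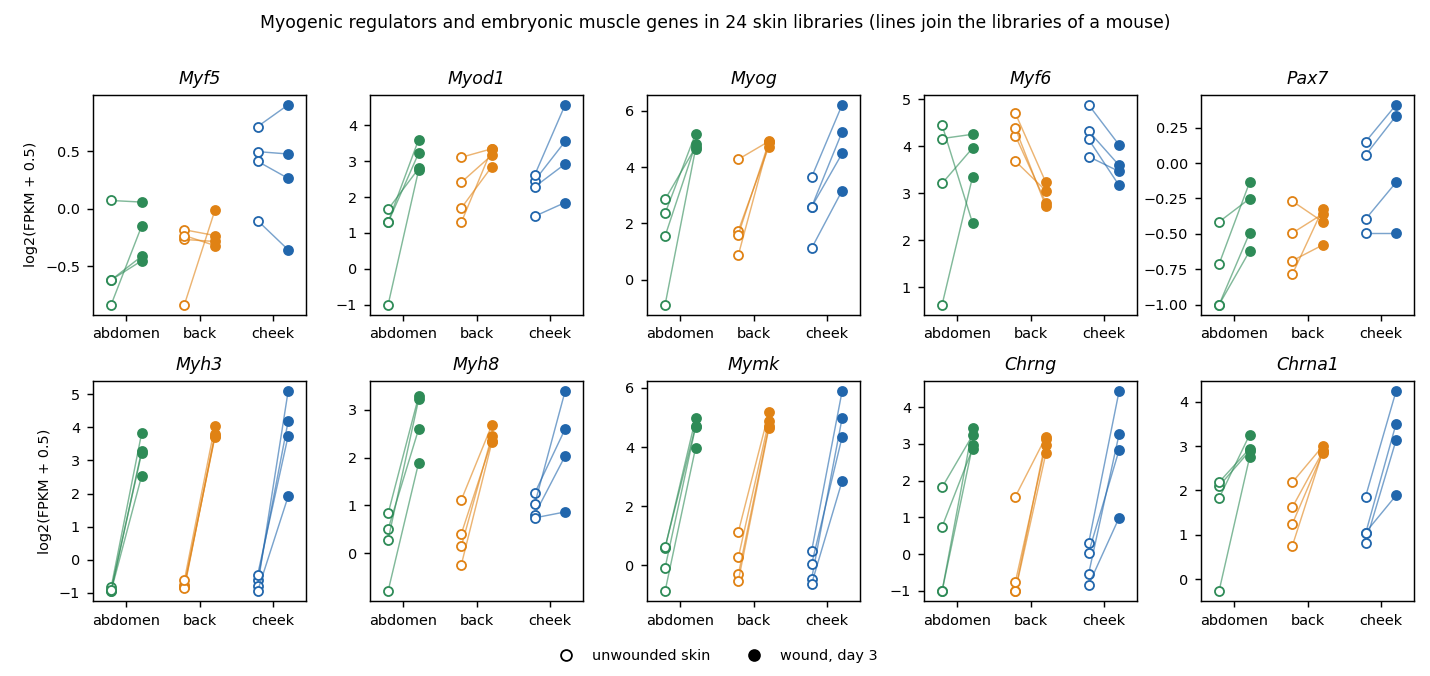
Level of each member as log2(FPKM + 0.5) (vertical axis) in unwounded skin (open circles) and day 3 wounds (filled circles) of abdomen, back and cheek, with a line for each of the 12 mice. Lines rise in 12 of 12 mice in the panels of Myod1, Myog, Myh3, Myh8, Mymk, Chrng and Chrna1, whereas Myf6 falls in all 4 back and all 4 cheek mice; the vertical scale differs between panels.

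The order of the members by level, per length, differed between the states. In the 12 unwounded libraries the median was highest for Myf6 at 17.79 FPKM, followed by Myog at 3.74, Myod1 at 2.70, Chrna1 at 2.22 and Myh8 at 1.045 FPKM. The medians of Mymk (0.49 FPKM), Myf5 (0.365), Pax7 (0.21), Chrng (0.14) and Myh3 (0.065) were below 0.5 FPKM. Across the 12 wounds the order by median was Myog (28.36 FPKM), Mymk (25.59), Myh3 (12.86), Myf6 (9.28), Myod1 (8.675), Chrng (7.82), Chrna1 (7.05), Myh8 (5.26), Myf5 (0.375) and Pax7 (0.29). The ranges of neighbours in both orders overlapped, so a neighbour's place is not fixed beyond the spread between mice. Myh3 moved from the last place to the third.

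Myog, whose product switches myoblasts from division to differentiation, was measured in mice 1 to 4 of the unwounded abdomen at 4.63, 0.04, 6.73 and 2.43 FPKM, of the back at 2.85, 2.54, 1.34 and 18.92 FPKM and of the cheek at 5.5, 12.0, 5.5 and 1.67 FPKM. The wounds of the same mice held 36.13, 24.78, 25.76 and 27.68 FPKM in abdomen, 26.07, 29.04, 29.32 and 29.72 in back and 37.61, 73.78, 21.89 and 8.47 in cheek. States did not overlap in abdomen and back, whereas in cheek the wound of mouse 4 lay below the unwounded skin of mouse 2. Back wounds were closely grouped (28.5 ± 1.67 FPKM, SD, n = 4) although their unwounded partners were not (6.41 ± 8.36). The fitted wound effects were 3.38 in abdomen (SE 0.58, adjusted p = 0.00198), 2.73 in back (adjusted p = 0.0035) and 2.30 in cheek (adjusted p = 0.0115), and the mean effect had an adjusted p of 3.9e-05.

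Myod1, the factor of activated myoblasts, read 1.95, 0, 2.66 and 1.97 FPKM in unwounded abdomen, 2.74, 8.13, 1.96 and 4.83 in back and 5.0, 5.6, 4.37 and 2.26 in cheek. Wounds gave 8.85, 6.25, 6.45 and 11.66 FPKM in abdomen, 6.72, 9.68, 9.68 and 8.5 in back and 11.23, 23.29, 7.09 and 3.1 in cheek. Every mouse was higher in its wound, but the states overlapped in back and cheek. Abdomen gave a wound effect of 2.28 (adjusted p = 0.00181), back of 1.05 (adjusted p = 0.0491) and cheek of 1.02 (adjusted p = 0.0644), with a mean of 1.45 (SE 0.23, adjusted p = 0.000221). The abdomen value includes the unwounded library of mouse 2, where Myod1 was listed at 0 and the fibre level was lowest. Without abdomen mice 2 and 3 the call for the mean effect remained, a setting chosen after seeing the data.

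Myf5, the regulator that acts earliest in the embryo, stayed low, between 0.06 and 1.14 FPKM in unwounded skin and between 0.23 and 1.37 FPKM in wounds. It was higher in the wound of 5 of 12 mice, and its mean wound effect was 0.12 (SE 0.098, adjusted p = 0.289). Its higher values were mostly in cheek, which read 0.91, 1.14, 0.83 and 0.43 FPKM unwounded, against 0.15, 0.06, 0.15 and 0.55 in abdomen and 0.38, 0.33, 0.06 and 0.35 in back. Unwounded cheek exceeded abdomen by 0.88 (SE 0.24, unadjusted p = 0.00285, adjusted p = 0.0691) and back by 0.76 (adjusted p = 0.128) in limma, so neither difference passed 0.05 after adjustment. Myf5 reached 0.5 FPKM in only 4 unwounded libraries, mostly cheek. It entered this comparison of sites largely through the group where it was high, so these p-values are not a fair test.

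Myf6, the regulator of mature fibres, was the regulatory factor with the highest level in unwounded skin. Unwounded values were 21.35, 1.04, 8.74 and 17.41 FPKM in abdomen, 18.17, 25.55, 12.34 and 20.37 in back and 19.5, 28.98, 13.23 and 17.22 in cheek. In wounds it read 4.63, 9.7, 15.07 and 18.58 FPKM in abdomen, 6.46, 8.86, 7.78 and 6.07 in back and 11.56, 15.8, 10.52 and 8.46 in cheek. All 4 back and all 4 cheek mice were lower in the wound, the back without overlap, while 3 of 4 abdomen mice were higher. The wound effects of 0.37 in abdomen, -1.30 in back (adjusted p = 0.0771) and -0.72 in cheek, and the mean of -0.55 (SE 0.32, adjusted p = 0.156), did not pass the threshold. Leaving out abdomen mouse 2 turned the abdomen effect to -0.42, and back fitted on its own 8 libraries gave an adjusted p of 0.00025.

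Pax7 lay at the edge of detection, from 0 to 0.61 FPKM in unwounded skin, where 2 abdomen libraries were listed at 0, and from 0.15 to 0.83 FPKM in wounds. The wound was higher in 10 of 12 mice, lower in back mouse 2 and equal in cheek mouse 4. The mean effect of 0.25 (SE 0.077) had a limma adjusted p of 0.0126 and did not reach 0.001. Cheek held the highest values in both states, 0.61 and 0.83 FPKM, both in mouse 2.

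Myh3, the embryonic myosin heavy chain, was at most 0.23 FPKM in unwounded skin, with 0.06, 0.02, 0.02 and 0.03 FPKM in abdomen, 0.07, 0.09, 0.05 and 0.15 in back and 0.15, 0.08, 0.23 and 0.02 in cheek. In wounds it reached 13.71, 5.3, 9.29 and 8.88 FPKM in abdomen, 12.84, 12.52, 13.37 and 16.03 in back and 17.67, 33.71, 12.88 and 3.27 in cheek. The lowest wound, at 3.27 FPKM, lay above the highest unwounded library, at 0.23. Myh3 entered the test through its wound libraries alone, since no unwounded library reached the 0.5 FPKM of the filter, and its effects are therefore given without a p. They were 4.13 in abdomen, 4.58 in back and 4.44 in cheek (SE 0.35).

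Myh8, the perinatal chain, was detectable before wounding, at 1.28, 0.08, 0.92 and 0.72 FPKM in abdomen, 0.61, 0.83, 0.35 and 1.67 in back and 1.88, 1.53, 1.25 and 1.17 in cheek. Wound values were 9.2, 3.21, 5.54 and 8.76 FPKM in abdomen, 4.98, 4.61, 4.49 and 5.91 in back and 5.55, 9.96, 3.59 and 1.32 in cheek. The states were apart in abdomen and back and overlapped in cheek, where mouse 4 read 1.17 and 1.32 FPKM. Wounding raised it by 2.53 in abdomen (adjusted p = 5.3e-05) and 2.09 in back (adjusted p = 9e-05), and the cheek effect was 1.27 (adjusted p = 0.00367), short of 0.001. In the limma F test of a difference between the wound effects of the sites, Myh8 had an unadjusted p of 0.0194 and an adjusted p of 0.299 over all genes.

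Mymk, the fusogen myomaker, was the member with the largest wound effect. Unwounded levels were 1.01, 0.05, 1.03 and 0.45 FPKM in abdomen, 0.71, 0.31, 0.2 and 1.7 in back and 0.23, 0.9, 0.53 and 0.15 in cheek. Wound punches held 30.85, 15.27, 25.59 and 25.31 FPKM in abdomen, 29.12, 25.6, 24.39 and 35.49 in back and 31.08, 58.9, 19.8 and 6.72 in cheek. No site's states overlapped. Fitted effects were 4.52 in abdomen, 4.70 in back and 4.65 in cheek (SE 0.29; adjusted p = 2.3e-06, 6.2e-07 and 7.3e-07), and Mymk was 33rd of the 14423 genes by mean effect. Mymx, which encodes the partner myomixer and is no member, went from a median of 0.38 FPKM (0 to 4.88) to 8.165 FPKM (1.97 to 17.0), higher in 12 of 12 mice, with a mean effect of 3.04 (adjusted p = 5.9e-06).

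Chrng, the fetal subunit of the acetylcholine receptor, was listed at 0 in 4 unwounded libraries. The unwounded readings were 1.18, 0, 3.03 and 0 FPKM in abdomen, 0, 0, 0.09 and 2.46 in back and 0.19, 0.73, 0.53 and 0.06 in cheek. After wounding they were 6.83, 7.28, 8.94 and 10.34 FPKM in abdomen, 8.26, 6.18, 7.38 and 8.63 in back and 9.13, 21.18, 6.64 and 1.49 in cheek. Wounds stood above unwounded skin at every site. Abdomen had an effect of 2.99 (adjusted p = 0.00298), back of 3.31 (SE 0.56, adjusted p = 0.000867) and cheek of 3.14 (adjusted p = 0.00167). The back call was lost in 9 other settings, 6 of them fits without a mouse, and the mean effect of 3.15 was called in all fits but that with the fibre level as covariate.

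Chrna1, the ligand-binding subunit shared by the fetal and adult receptor, read 3.78, 0.33, 4.05 and 3.04 FPKM in unwounded abdomen, 2.57, 1.87, 1.18 and 4.04 in back and 1.54, 3.13, 1.27 and 1.57 in cheek. The wounds read 6.91, 6.21, 7.19 and 9.04 FPKM in abdomen, 6.86, 6.71, 6.89 and 7.51 in back and 10.87, 18.42, 8.29 and 3.2 in cheek. States did not overlap at any site, though in cheek the gap was narrow, 3.13 against 3.20 FPKM. Effects of 1.5 in abdomen (adjusted p = 0.0107), 1.46 in back (adjusted p = 0.00819) and 2.00 in cheek (adjusted p = 0.00179) were not called at a single site, and the mean of 1.65 was called (SE 0.21, adjusted p = 4.8e-05). Back fitted on its own 8 libraries passed the threshold (adjusted p = 0.00041), as did cheek in the fit without abdomen mice 2 and 3 (adjusted p = 0.00032).

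Site by site at the threshold of 0.001, the test called 3 members higher in abdomen wounds (Myh3, Myh8 and Mymk), where it called 3.92% of all tested genes higher. In back it called 4 (the same 3 and Chrng), against 10% of genes, and in cheek 2 (Myh3 and Mymk), against 6.5%. At a threshold of 0.05 the counts were 8, 7 and 6, against 16.9%, 28% and 19.7% of genes. Each of these counts holds Myh3, which had to differ once it passed the filter, so 1 is to be taken off for the members with a fair test. No member was called lower at a site or in the mean effect, where 29.4% of genes were lower at 0.05 and 33.3% higher, against 0 and 8 members, Myh3 again included. Described over all 10 members, abdomen had a median wound effect of 2.41, back of 1.77 and cheek of 1.63, beside -0.015, 0.066 and 0.012 over all genes. The plot of fitted effects shows the sites side by side.

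**Figure D2:**
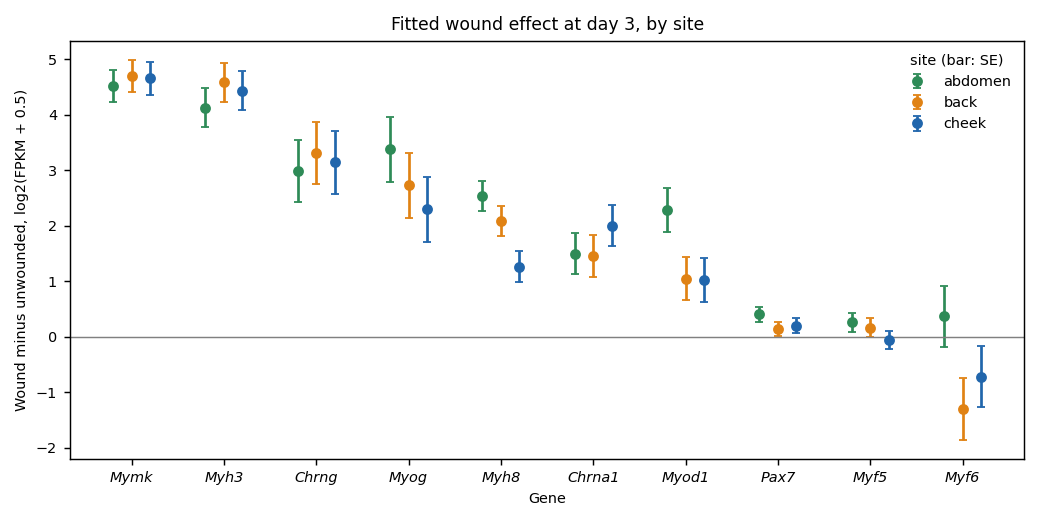
Fitted wound effect (wound minus unwounded, log2(FPKM + 0.5), vertical axis) of each member at abdomen, back and cheek, ordered by the mean over sites, with bars of 1 SE from the limma fit. Mymk and Myh3 lie between 4.13 and 4.70 at every site, Myod1 spans 1.02 to 2.28, and Myf6 lies above 0 in abdomen and below 0 in back and cheek.

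Sites were then compared within each state, since by the protocol the mice of different sites are different animals, although the labels reuse their numbers. Of the 8 members that passed the filter in unwounded skin (not Pax7 and Myh3), 0 were called at an adjusted p of 0.05 in limma between back and abdomen, cheek and abdomen or cheek and back, where 2.67%, 2.57% and 1.05% of genes were called. At an unadjusted p under 0.05 the counts were 1 (Myod1), 3 (Myod1, Myf5 and Myh8) and 1 (Myf5). Myf5 carries the limit given with its values above. Myod1 was higher by 1.32 in back (SE 0.58, adjusted p = 0.219) and by 1.39 in cheek (adjusted p = 0.231) than in abdomen, where mouse 2 was listed at 0. Leaving out a mouse took these differences down to 0.71 and 0.79, and the muscle fibre level as a covariate to 0.44 and 0.45.

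In the wounds, 9 members were tested (not Pax7) and 0 were called in limma in any of the 3 comparisons, against 1.27%, 10.8% and 2.5% of genes. Only Myf5 had an unadjusted p under 0.05, in cheek against abdomen (0.56, SE 0.23, adjusted p = 0.118) and against back (0.53, adjusted p = 0.164). Without cheek mouse 4, Myf5 was called between cheek and abdomen wounds (0.79, adjusted p = 0.0396). Myf5 reached 0.5 FPKM in only 4 wounds, mostly cheek. It entered these comparisons largely through the group where it was high, so none of its p-values here is a fair test. The fibre genes were also higher in cheek wounds: 13 of 26 were called against abdomen and 3 against back, and the fibre level was higher by 0.99 (two-sided exact permutation, p = 0.0571) and by 0.72 (p = 0.0286, exact). With the fibre level as a covariate the Myf5 differences were 0.45 (adjusted p = 0.393) and 0.46 (adjusted p = 0.345). The differences of Myog were 0.011 for back against abdomen, -0.067 for cheek against abdomen and -0.079 for cheek against back (SE 0.49 each), and both cheek values turned sign with the fibre covariate (0.041 and 0.00015). Those of Mymk were 0.26, -0.069 and -0.33 (SE 0.51). With such errors, differences of the size of an SE could not be seen. Likewise 0 of 10 members differed in wound effect between sites by the F test (0.0208% of genes were called), with 1 member, Myh8, at an unadjusted p under 0.05.

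The spread within the wounds, as the SD of FPKM, was widest in cheek for 9 members, whereas that of Myf6 was widest in abdomen (6.12 against 3.09 FPKM in cheek). Cheek wound 2 held the highest wound value of 9 members, all but Myf6, and cheek wound 4 the lowest of 7, namely Myog, Myod1, Myh3, Myh8, Chrng, Chrna1 and Mymk. The 10 members summed to 257.2 FPKM in the highest and 36.5 FPKM in the lowest cheek wound, against 78.6 to 121.1 in abdomen and 102.0 to 118.4 in back. Those 2 cheek wounds had close muscle fibre levels, 6.84 and 6.88. In unwounded skin the abdomen library of mouse 2, with the lowest fibre level, held the lowest value of all 10 members, a place it shared with another library for Myf5, Pax7, Myh3 and Chrng.

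Among the members, Myh3 and Mymk had the highest Pearson r over the 24 libraries (0.983), and after subtracting the mean of each of the 6 groups the highest was between Myog and Chrna1 (0.898). Myh8 and Mymk gave 0.896 by that measure. These values describe libraries that share mice, sites and composition and carry no test. Myf6 was least like the others, with r between -0.279 (Myh3) and 0.454 (Myf5) over the 24 libraries.

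The muscle fibre level of a library went with Myf6. In the 12 unwounded libraries r was 0.957, and it was 0.866 without abdomen mouse 2 and 0.589 in the 12 wounds. Myog gave 0.579, which fell to 0.031 without abdomen mouse 2, and -0.08 in wounds. For Myh3 the values were 0.44, 0.35 and 0.095, and for Mymk 0.286, -0.207 and -0.042. Pax7 (0.725, 0.743 and 0.453) and Myf5 (0.6, 0.518 and 0.543) lay between. The plot against the fibre level gives 3 of these genes.

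**Figure D3:**
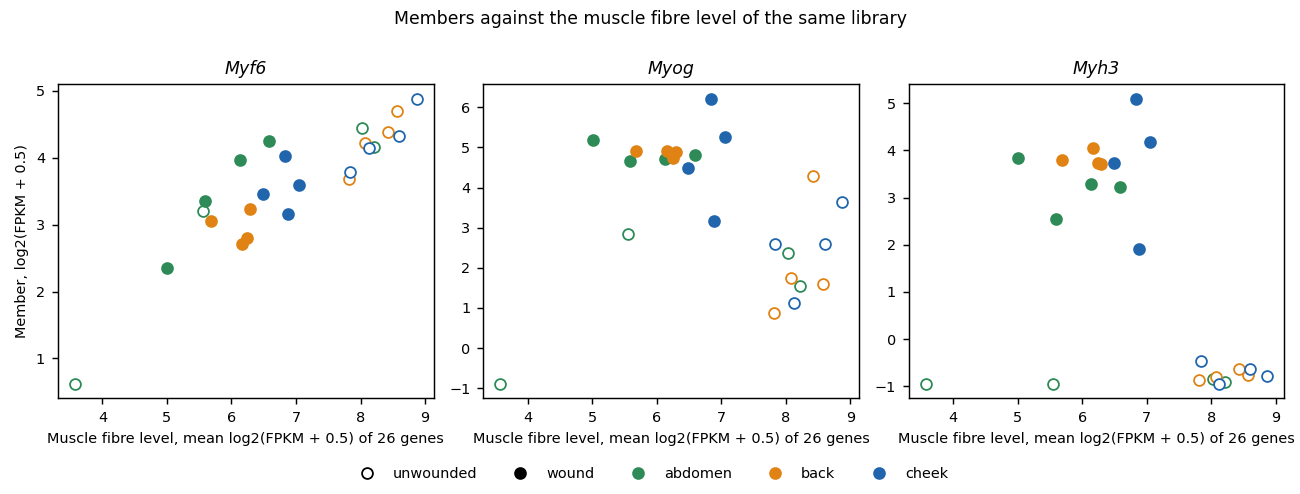
Level of Myf6, Myog and Myh3 (vertical axis, log2(FPKM + 0.5)) against the muscle fibre level of the same library (horizontal axis, mean log2(FPKM + 0.5) of 26 fibre genes), in unwounded skin (open) and wounds (filled), coloured by site. Myf6 rises with the fibre level (r = 0.957 over 12 unwounded libraries), whereas all 12 wounds lie above all 12 unwounded libraries for Myh3, although their fibre levels (5.01 to 7.05) are below those of 10 unwounded libraries.

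Set against the fibre level of the same library, the rises were larger, since the fibre level fell in all but 2 mice. The change in a member minus the change in the fibre level, averaged over 12 mice, was 6.02 for Mymk (SD 1.56), 5.78 for Myh3 (SD 1.86), 4.54 for Chrng (SD 1.79) and 4.20 for Myog (SD 1.41). It was 3.36 for Myh8, 3.05 for Chrna1 and 2.84 for Myod1. Myf6, whose own level was lower in 9 of 12 mice, was higher relative to the fibre level in 12 of 12, by 0.84 (SD 0.47). For Myog, Myod1, Chrna1 and Myf6 the two-sided exact sign permutation gave p = 0.000488, the smallest that 12 mice allow; within a site of 4 mice the smallest possible is 0.125. Myog, Myod1 and Chrna1 were already higher in the wounds of 12 of 12 mice. Where the fibre level fell, the sign of their relative change was therefore fixed, and this p adds no further support for their rise. Myf6 relative to the fibre level also varied without a wound. Its unwounded mean was -3.23 at the site with the lowest mean fibre level (abdomen, 6.34), against -3.97 (back) and -4.07 (cheek). For Myf6 this p thus cannot separate a wound rise from a ratio that is higher where the fibre level is low. In the 2 mice whose fibre level was higher in the wound, abdomen mice 2 and 3, the Myf6 ratio was higher as well. Their unwounded punches had the lowest fibre levels, and what moved the ratio was not tested. The other 6 members had unwounded medians of at most 1.045 FPKM, near the floor that the pseudocount of 0.5 sets, so they could fall little while the fibre level fell, and their relative values are a description with no test. Among these, Pax7 and Myf5 had relative values of 1.64 and 1.52, where the mean change of their own level was 0.25 and 0.12 and that of the fibre level -1.39, and both lay below 0 in the 2 mice whose fibre level was higher in the wound. The lowest value of every member came from abdomen mouse 2 or 3, whose unwounded punches had the lowest fibre levels.

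**Figure D4:**
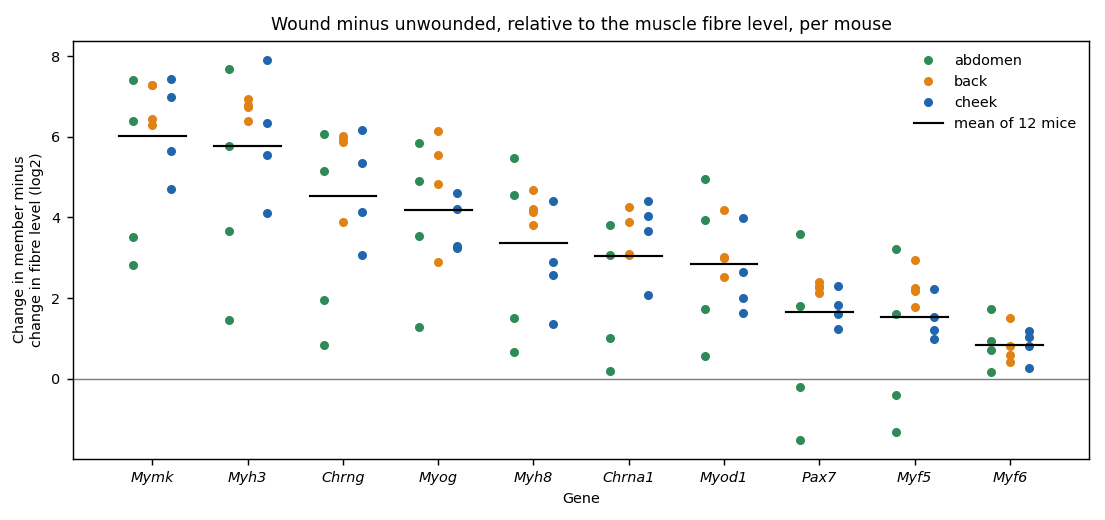
Wound minus unwounded change of each member relative to the muscle fibre level (vertical axis, log2), 1 point per mouse coloured by site, with a bar at the mean of 12 mice. Means run from 6.02 for Mymk to 0.84 for Myf6; 2 abdomen mice lie below 0 for Pax7 and Myf5, and for the other 8 members all 12 mice lie above 0.

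With the fibre level as a covariate in the limma fit, 4 members stayed past 0.001 in the mean effect: Mymk (4.59), Myh3 (4.02, with the limit given above), Myh8 (1.87, adjusted p = 0.00023) and Chrna1 (2.05, adjusted p = 0.000692). Chrng (3.21, adjusted p = 0.00154), Myog (3.28, adjusted p = 0.00165) and Myod1 (1.70, adjusted p = 0.00513) fell short of it with effects no smaller than before. The mean effect of Myf6 turned from -0.55 to 0.61 (adjusted p = 0.0312). Myod1 also missed the threshold at a pseudocount of 0.1 (adjusted p = 0.00185).

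The relatives of the 2 receptor and 2 myosin members were measured in the same libraries. Chrnd, the delta subunit, rose by a mean of 1.66 (adjusted p = 0.000574), from a median of 0.55 to 3.315 FPKM, higher in 12 of 12 mice. Chrnb1, the beta subunit, had medians of 5.05 and 5.465 FPKM and an effect of 0.29 (adjusted p = 0.0808), and Chrne, the adult epsilon subunit that replaces gamma, had 0.885 and 0.275 FPKM and -0.68 (adjusted p = 0.051). The adult fast chains had medians of 403.6 and 96.1 FPKM (Myh1), 49.65 and 13.78 FPKM (Myh2) and 247.7 and 103.8 FPKM (Myh4), each lower in 10 of 12 mice. Their mean effects of -1.44, -1.24 and -1.21 had adjusted p of 0.0025, 0.00311 and 0.029. The slow chain Myh7 was at most 1.76 FPKM, and Myh6, Myh7b, Myh13 and Myh15 were at most 0.34 FPKM and not tested. Myh14, the called gene of this list of 9, encodes a non-muscle myosin and was lower by 0.69 (adjusted p = 2.1e-06).

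**Figure D5:**
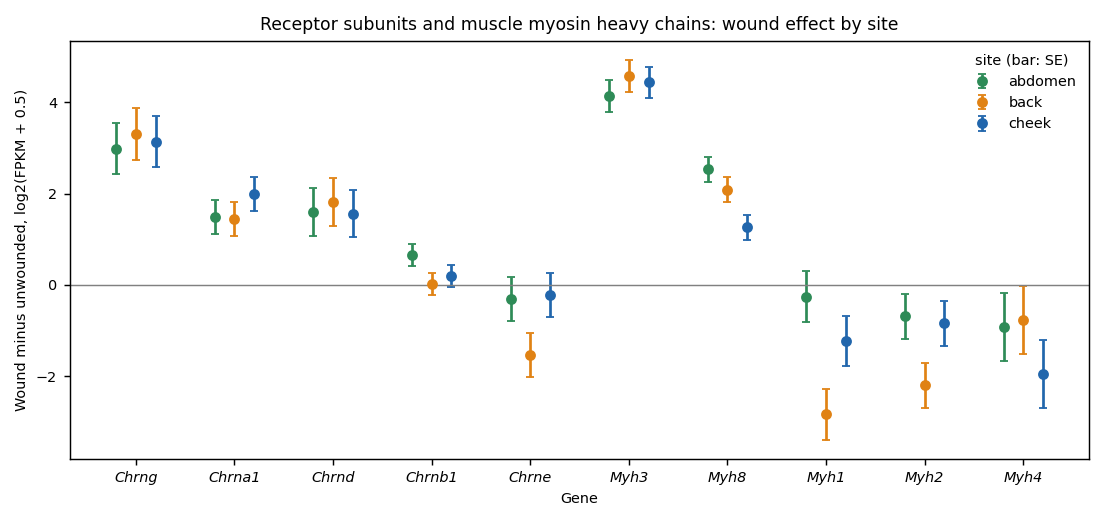
Fitted wound effect (vertical axis, log2(FPKM + 0.5), bars of 1 SE) by site for 5 subunits of the muscle acetylcholine receptor and 5 muscle myosin heavy chains. Chrng, Chrna1 and Chrnd and the developmental chains Myh3 and Myh8 lie above 0 at every site, Chrne and the adult chains Myh1, Myh2 and Myh4 lie below 0, and Chrnb1 lies between 0.020 and 0.66.

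Other genes of fusion and differentiation were counted on a fixed list of 26, of which 25 were tested. In the mean effect 12 were called higher and 4 lower, beside 19.1% and 14.4% of all tested genes. Their median effect was 0.40 beside 0.018 over all genes. Actc1, the cardiac actin of young skeletal fibres, rose from a median of 1.115 to 76.2 FPKM (mean effect 5.46, adjusted p = 1.4e-08), and Myl4, the embryonic light chain, from 3.4 to 79.97 FPKM (4.03, adjusted p = 3.2e-07), both in 12 of 12 mice. Jam2 and Boc, cell surface proteins that are not confined to muscle, fell by 0.58 and by 0.49. Of 17 tested satellite cell and upstream genes, 2 rose (Vcam1 by 1.35 and Itga7 by 0.85, adhesion genes that other cells of a wound also use) and 6 fell, among them Mstn (-2.39), the growth inhibitor made by fibres, and Vgll2 (-0.98). The counts of the satellite cell list, too, stand beside 19.1% higher and 14.4% lower over all tested genes. Pax3, the relative of Pax7, was at most 0.74 FPKM and was not tested.

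Of 19 tested partners and inhibitors of the regulatory factors, 2 rose (Snai1 by 1.38 and Cdkn1a by 0.57) and 3 fell (Id4 by 0.42, Id3 by 0.38 and Mef2a by 0.29), beside 19.1% and 14.4% of all genes. At 0.05 the counts were 3 higher and 7 lower, beside 33.3% and 29.4% of all genes. Of 16 junction genes 2 rose, Chrnd and Nrg1 (1.33), a ligand that many tissues make, and 3 fell, among them Ache (-0.63) and Utrn (-0.56). Nrg1 had an unwounded median of 0.09 FPKM and a maximum of 0.74 FPKM, so it passed the filter largely through the wounds. Of 12 tested denervation and atrophy genes 2 rose, among them Runx1 (1.14), and 2 fell, Fbxo32 (-1.17), the atrophy ligase, and Cdkn1b (-0.37). Of the 2 that rose, the gene not named here reached the filter only in wounds, so its call is a description. Of the 26 fibre genes 0 were called in limma at 0.001, and 25 were lower at an adjusted p of 0.05, as they were at an unadjusted p under 0.05, with a median of -1.42.

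Markers of other cells moved in the same wounds, where 19.1% of all tested genes were called higher and 14.4% lower in the mean effect. The counts of these lists were not tested against those shares. All 8 neutrophil markers were called higher, with summed FPKM of 8.5 to 37.8 in unwounded skin and 350.6 to 2408.3 in wounds. Only 5 of these 8 also passed the filter in unwounded skin. The others entered the test through the wounds alone, so they had to differ and are a description. Called higher as well were 8 of 9 macrophage markers (719.0 to 1541.4 against 1544.1 to 2940.5) and 6 of 8 proliferation genes (86.7 to 236.8 against 159.5 to 244.6). Of 9 interfollicular keratinocyte markers 3 rose and 1 fell (5720.9 to 10548.4 against 10434.6 to 18584.9). Of 8 fibroblast markers 3 fell (9384.7 to 23536.8 against 6135.5 to 12854.9). The smooth muscle list gave 1 higher and 4 lower of 9. Most of its sum in most libraries was Des, which striated fibres express as well (44.6 to 766.5 FPKM unwounded against 204.8 to 508.9 in wounds), and the other 8 genes summed to 207.9 to 353.0 against 187.6 to 259.6 FPKM. The Schwann cell list gave 2 lower of 9 (183.9 to 644.7 against 107.1 to 290.8). In wounds no listed gene was at 0 in all 4 libraries of a site for any of these 7 lists, and in unwounded skin 1 neutrophil marker was, in abdomen and in back. Keratinocyte and fibroblast markers of skin were thus present in every library. What part these cells had in the members' levels was not tested.

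For each member, the 3 genes with the most similar pattern over 24 libraries were sought among 14413 tested genes outside the group, by Pearson r of log2(FPKM + 0.5). Myog was closest to Myl4 (r = 0.969, and 0.957 after subtracting group means), Ankrd1 (0.944) and Bex1 (0.924). Myod1 was closest to Cdh15 (0.914), which encodes M-cadherin of myoblasts, then Bex1 (0.895) and Igf2 (0.895). Myh3 and Mymk shared Actc1 as the closest gene (0.987 and 0.98), followed by Ccl4 and Ccl3 for Myh3 (0.982 each) and by Gm5483 (0.969) and Tnni1 (0.966) for Mymk. The r of Myh3 with the chemokine genes Ccl4 and Ccl3 was 0.616 and 0.627 after subtracting group means, and that of Mymk with Gm5483 was 0.42. Myh8 was closest to Myl4 (0.952), Tnni1 (0.951) and Casq2 (0.94).

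Chrng was closest to Myl4 (0.944), Mymx (0.943) and Tnnt2 (0.938), the cardiac troponin T that young skeletal fibres also use. For Chrna1 the closest gene was another receptor subunit, Chrnd (0.934, and 0.912 after group means), ahead of Myl4 (0.909) and Ncam1 (0.902). Myf6 was closest to Neurl1a (0.934), Ctxn3 (0.922) and Des (0.917), the intermediate filament of muscle, and its r stayed at 0.941, 0.969 and 0.931 after group means. Pax7 was closest to Wfs1 (0.88), Chrnb1 (0.845) and Mum1l1 (0.843), and Myf5 to Snx19 (0.816), Arpp21 (0.813) and Reep1 (0.808). No test was attached to these values, which are the highest of many.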

How the data were processed

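RNA of 24 libraries from 12 mice was analysed. By the paper, the authors' provider sequenced RNA on the BGISEQ-500 platform (100-base paired-end reads), whereas the labels name standard Illumina protocols. Reads were mapped to GRCm38 with HISAT2 and Bowtie2 (2.2.5). FPKM were calculated with RSEM (1.2.12), and the authors deposited them rounded to 2 decimals. A deposited table of the authors' log2 fold changes and adjusted p-values was not used. A gene was tested where 4 or more libraries of the fit reached 0.5 FPKM. Values were fitted as log2(FPKM + 0.5) with limma (3.58.1, statmod 1.5.0, R 4.3.3), with trend and robust moderation and Benjamini-Hochberg adjustment over all tested genes. Wound effects used 24 libraries with a term for each mouse (threshold 0.001). Sites were compared in 12 unwounded or 12 wound libraries (threshold 0.05). Both libraries of a mouse share its number in the labels, which pairs them; their deviations from group means correlated over genes with r of -0.03 to 0.533, over 0.1 in 11 of 12 mice. Ratios to the fibre level were tested by exact permutation.

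The members and gene lists were chosen with earlier results of these data known. Genes outside the group were named as the 2 called genes with the largest rise and fall of each list in the mean effect, plus receptor subunits, Mymx, Pax3 and myosin heavy chains. Lists of other cell types are given by counts and sums. A gene that this rule names is not reported here. For each member the 3 genes of highest r were named. No 2 libraries held identical values. Depth is unknown; steps in the lowest values of 18 genes gave relative depths of 0.923 to 1.074, a rough estimate. The fits were tested on simulated data. Alternatives were other pseudocounts, filters, scalings, moderation, terms and thresholds, a fibre covariate, and each mouse left out.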

Additional observations from a re-analysis of the deposited data

Results flagged for a closer look

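Of 66 groups of 4 libraries examined for a sample far from the other 3 by Dixon's criterion, 4 held such a sample, and chance alone marks about 1 group in 20. Myog read 18.92 FPKM in the unwounded back library of mouse 4, against 1.34 to 2.85 FPKM in the other 3. Chrng read 2.46 FPKM in the same library, against 0 to 0.09 FPKM. That library also held the highest unwounded back values of Myh8 (1.67 FPKM), Chrna1 (4.04 FPKM) and Mymk (1.7 FPKM), with a fibre level of 8.42, within the range of the other back libraries. Myf5 read 0.06 FPKM in the unwounded back library of mouse 3, against 0.33 to 0.38 FPKM. Chrna1 read 3.13 FPKM in the unwounded cheek library of mouse 2, against 1.27 to 1.57 FPKM.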

How the results depend on the processing

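The 7 members called in the mean wound effect were the same 7 under median-ratio scaling, quantile normalization, both other filters, a pseudocount of 1, moderation without trend, no replicate block (7 called), and each mouse left out; a pseudocount of 0.1 lost Myod1 and the fibre covariate left 4. With the fibre covariate 2 members were called in back. At a threshold of 0.05, 8 members were called in abdomen skin, 7 on the back and 6 on the cheek. The fit without the replicate block changed no count at a site (3, 4 and 2). Between sites, same-numbered mice are taken to share only a number: their deviations had r of -0.372 to 0.22, over 0.1 in 4 of 24 pairs, and the replicate block called 0 members. Leaving out a mouse gave 3 to 4 calls (abdomen), 3 to 5 (back), 2 to 3 (cheek) and 0 to 1 between cheek and abdomen wounds. The call between wounds was Myf5, which entered that comparison largely through cheek. Counts of wound effects, at the sites and in the mean, include Myh3, which had to differ once it passed the filter. On its own 8 libraries the cheek called Mymk and Myog, with Myh3 set aside for that limit, and the back gained Chrna1 and Myf6 and lost Chrng.

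Directions turned for members that were not called: Myf6 in abdomen (-0.42 without mouse 2, range -0.42 to 1.19 over mice left out, and -1.0 without mice 2 and 3, a setting chosen after seeing the data), Myf6 with the fibre covariate in back (0.46), cheek (0.56) and the mean (0.61), Myf5 in cheek (0.061 with the covariate, 0.0068 without cheek mouse 4, range -0.14 to 0.0068), in back without mouse 3 (-0.052, range -0.052 to 0.25) and in the mean with quantile normalization (-0.015), and Pax7 in back with quantile normalization (-0.065). Between wounds of different sites, Myog turned with the fibre covariate (0.041 for cheek against abdomen and 0.00015 for cheek against back). Without abdomen mice 2 and 3, Myh8 missed the abdomen threshold (adjusted p = 0.00122), which left 2 members called there. The fall of the fibre level in back was -2.34 with the median of the genes in place of the mean. Leaving out a mouse moved the fibre difference in abdomen between -1.36 and 0.32 (0.32 without mouse 1), unwounded cheek minus back between -0.033 and 0.31 (-0.033 without cheek mouse 2), and among wounds back minus abdomen between -0.0066 and 0.52 (-0.0066 without abdomen mouse 1), cheek minus abdomen between 0.71 and 1.24 and cheek minus back between 0.58 and 0.83. The cause of these shifts was not tested. Without counts, the error of values near 0, such as those of Pax7, Myf5 and unwounded Myh3, is unknown.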
